A study of Rattus norvegicus with 9 samples.

Results

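The genes described here sense nutrients and gut hormones in pancreatic islets. A list of 8 was drawn up, made of the receptors Gipr, Glp1r, Gcgr and Ffar1, the glucose transporter gene Slc2a2, the potassium channel subunit gene Abcc8, the phosphatase gene G6pc2 and the zinc transporter gene Slc30a8. Members were the probe sets, the groups of short probes that measure a transcript on an Affymetrix array, whose symbol in the platform annotation was on that list. This gave 5 of the 8 genes, out of 14217 named genes, with 1 probe set each: Gipr, Glp1r, Gcgr, Slc2a2 and Abcc8. No probe set was listed under Ffar1, which encodes a receptor for long-chain fatty acids, G6pc2, which encodes the catalytic subunit of the islet glucose 6-phosphatase, or Slc30a8, which encodes the transporter that loads zinc into insulin granules, and these 3 were not analysed here.

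Islets were isolated from male Zucker Diabetic Fatty (fa/fa) rats, which lack a working leptin receptor and become obese and diabetic, and their RNA was measured on 9 arrays. The 3 treated arrays came from rats fed rosiglitazone, a thiazolidinedione drug that activates PPAR gamma, at 3 mg per kg body weight from week 5, and killed at 9 weeks of age. The 3 withdrawal arrays came from rats fed the drug over the same weeks, 5 to 9, and killed 2 weeks after it was stopped, at 11 weeks. The 3 untreated arrays came from rats that never received it and were killed at 13 weeks. All groups carried the fa/fa genotype and ate the same Purina diet. No lean rats and no untreated rats of 9 or 11 weeks were among the arrays, so treatment and age cannot be told apart in any comparison. Replicates were labelled as biological, out of 24 animals randomised in the study.

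Beta cells release insulin when glucose enters through a facilitative transporter and is metabolised, which closes ATP-sensitive potassium channels, depolarises the membrane and opens calcium channels. Gut hormones called incretins act on receptors coupled to the stimulatory G protein, raise cyclic AMP and strengthen the response to glucose without replacing it. Glucagon from neighbouring alpha cells acts on beta cells through a related receptor of the same family, known as class B. Long-chain fatty acids act through Ffar1 and the G protein Gq.

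RefSeq promoter windows, from 250 bases before to 50 after an annotated transcript start, were at hand for 3 of the 5 genes in the rat build GRCr8. They are shown because the receptor genes Glp1r and Gcgr differed between treated and untreated arrays in opposite directions, while Slc2a2 differed there in the same direction as Glp1r in the deposited values. All lie on the plus strand and read 5′ to 3′. Capitals mark matches, on either strand, to AGGTCA, the half-site bound by many nuclear receptors, or to GGGCGG, the GC box.
Glp1r, chr20:8973143-8973442: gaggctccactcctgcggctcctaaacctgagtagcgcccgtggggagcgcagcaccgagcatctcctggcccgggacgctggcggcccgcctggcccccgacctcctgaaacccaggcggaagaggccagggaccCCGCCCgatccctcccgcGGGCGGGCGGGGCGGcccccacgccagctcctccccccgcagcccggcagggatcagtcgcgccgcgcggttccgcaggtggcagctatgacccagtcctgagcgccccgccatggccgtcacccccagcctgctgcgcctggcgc
Gcgr, first start, chr10:106306553-106306852: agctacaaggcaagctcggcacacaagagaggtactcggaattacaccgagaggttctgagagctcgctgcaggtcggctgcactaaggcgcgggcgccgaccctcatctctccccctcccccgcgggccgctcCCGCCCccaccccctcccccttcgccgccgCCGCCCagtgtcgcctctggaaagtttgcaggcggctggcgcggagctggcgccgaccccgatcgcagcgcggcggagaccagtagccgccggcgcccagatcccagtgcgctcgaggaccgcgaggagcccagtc
Gcgr, second start, chr10:106307346-106307645: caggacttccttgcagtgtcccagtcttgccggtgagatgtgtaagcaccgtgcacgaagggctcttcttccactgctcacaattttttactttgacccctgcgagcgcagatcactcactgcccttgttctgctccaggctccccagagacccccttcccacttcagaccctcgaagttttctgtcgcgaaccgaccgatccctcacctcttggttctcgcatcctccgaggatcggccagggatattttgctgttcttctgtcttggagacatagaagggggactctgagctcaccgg
Slc2a2, chr2:113540120-113540419: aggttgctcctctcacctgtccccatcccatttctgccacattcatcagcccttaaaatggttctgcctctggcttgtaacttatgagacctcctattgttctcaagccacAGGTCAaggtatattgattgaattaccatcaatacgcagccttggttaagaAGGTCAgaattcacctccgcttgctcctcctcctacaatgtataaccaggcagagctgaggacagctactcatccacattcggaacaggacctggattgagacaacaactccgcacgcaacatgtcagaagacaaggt

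The Glp1r window held 4 GC boxes, 3 of them in an overlapping run, no AGGTCA, and a G and C content of 76.0%. The window at the first Gcgr start held 2 GC boxes at 71.0% G and C, and that at the second start held neither motif, at 55.7%. The Slc2a2 window, at 47.7% G and C, held no GC box and 2 AGGTCA matches, beginning 139 and 88 bases before the start. Of 33469 such windows in the table, 33.1% held a GC box and 16.2% an AGGTCA, and the median G and C content was 51.7%. The direct repeat of AGGTCA with 1 base between the copies, the form that PPAR gamma binds with its partner RXR, was in none of these 4 windows and in 0.0538% of all. The E-box CACGTG, the cyclic AMP response element TGACGTCA and TATAAA were also in none of the 4, and in 6.42%, 1.83% and 14.2% of all. These are letter matches in short windows and say nothing of binding.

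How widely log2 values were spread varied between arrays and went with the groups, and this bears on every value below. The standard deviation of log2 values over probe sets was 1.84 to 2.00 on treated, 1.66 to 1.77 on untreated and 1.65 to 1.72 on withdrawal arrays. Every treated array thus had a wider spread than any other. The brightest 10% of probe sets had a median of 0.49 in treated minus untreated and of −0.67 in withdrawal minus treated. Over all tested probe sets these medians were 0.16 and −0.19, and after quantile normalization, which gives all arrays the same distribution, 0.02 and −0.03. The members' differences are therefore given on the deposited log2 scale and after quantile normalization. Differences were estimated with limma over 20694 probe sets on all 9 arrays, and a gene was called at an adjusted p under 0.05. Beta cell markers, without the members, had list means of 11.8 or more on every treated array, 11.4 to 11.6 on untreated and 11.2 to 11.4 on withdrawal arrays, from 6 of 8 listed genes. Insulin was bright on every array. Acinar markers of the exocrine pancreas were bright too, with list means of 13.7 to 13.9, so the islet preparations held exocrine RNA in each group. In such bulk RNA, fewer cells of a type and less RNA per cell cannot be told apart.

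Gcgr, the glucagon receptor gene, was the member that set the untreated islets apart from both groups that had received the drug. It stood at log2 values of 8.47, 8.16 and 8.37 on the 3 untreated arrays, at 7.47, 7.43 and 7.52 on treated and at 7.34, 7.29 and 7.39 on withdrawal arrays. Untreated values lay above all others with no overlap, while the treated and withdrawal groups were narrow and close, each with an SD of 0.05 (n = 3) against 0.16 in untreated rats. Gcgr fell by 0.86 ± 0.12 (SE, n = 3 per group) on treated against untreated arrays, a level 1.81-fold lower (limma, adjusted p = 0.00146). It fell by 0.99 ± 0.12 on withdrawal against untreated arrays, 1.99-fold lower (limma, adjusted p = 0.00681). Among all probe sets tested in that comparison, it had the 8th smallest p.

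**Figure D1:**
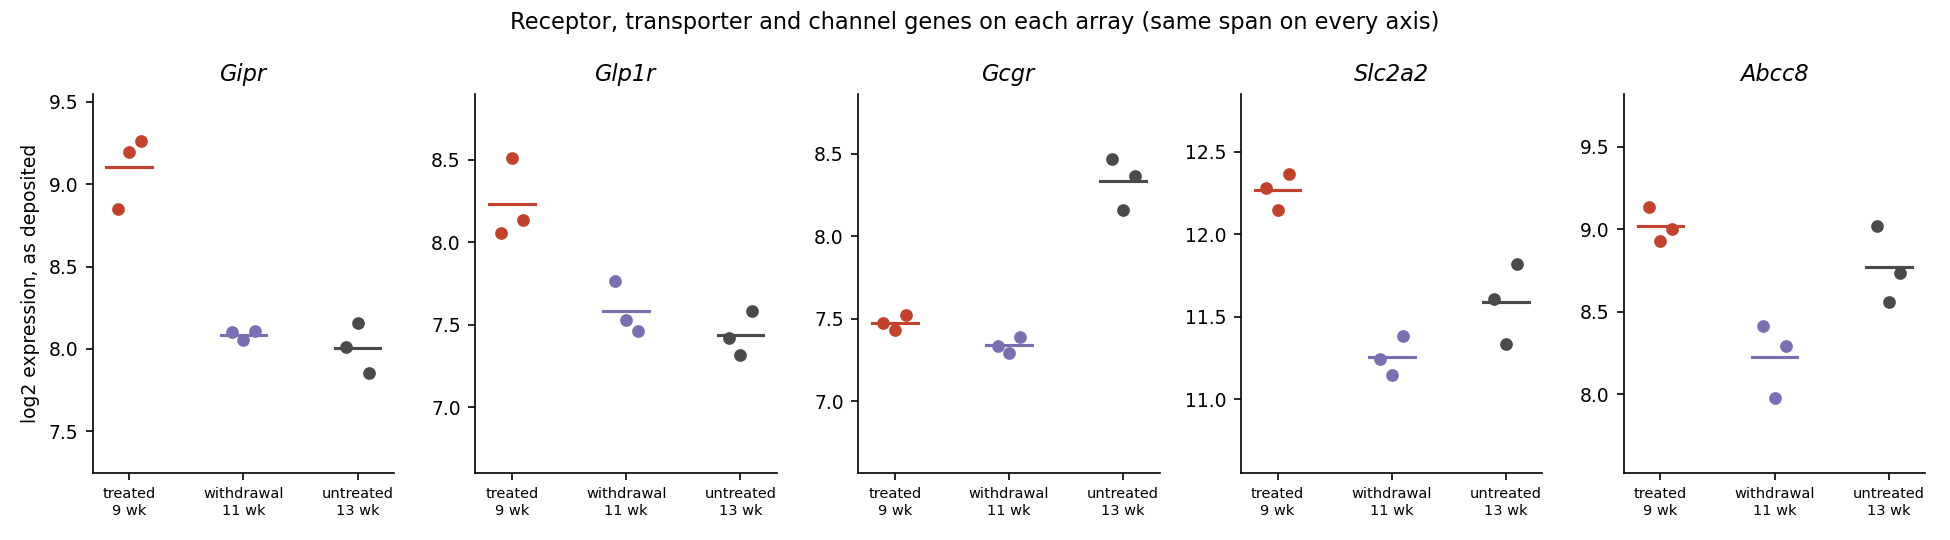
Deposited log2 expression of the 5 genes on each of the 9 arrays, with points for arrays and bars for group means, on axes of equal span. Gipr, Glp1r and Slc2a2 were higher on all 3 treated arrays than on any other, and Gcgr was higher on all 3 untreated arrays, at 8.16 to 8.47, than on any other.

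Quantile normalization left the Gcgr pattern in place. The differences were then −1.11 ± 0.10 for treated minus untreated (limma, adjusted p = 0.000282) and −0.97 ± 0.10 for withdrawal minus untreated (limma, adjusted p = 0.00158). Its mean rank among all probe sets of an array was at the 91.6th percentile on untreated, the 78.7th on treated and the 80.9th on withdrawal arrays. Bright probe sets moved the other way between treated and untreated rats: the median of the brightness decile that holds Gcgr was 0.30. Between withdrawal and treated arrays Gcgr differed by −0.13 (95% interval −0.40 to 0.13; limma, adjusted p = 0.38) as deposited and by 0.14 (−0.08 to 0.37) after quantile normalization, so no change after the drug was stopped was called, and the sign depended on the scale. The call against untreated rats in the withdrawal comparison was lost in 4 of 9 fits that left out an array. These were the fits without the first or second withdrawal array or without untreated array 1 or 3, where the adjusted p was 0.0661, 0.088, 0.0857 and 0.0672 at differences of −0.93 to −0.99.

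Alpha cell marker means, from 5 of 7 listed genes, ran from 9.05 to 9.41 in the treated group. Untreated rats had 8.65 to 8.81, and rats off the drug 8.53 to 8.60. Beta cell marker means were also highest under treatment, so neither list followed Gcgr between treated and untreated rats. Between withdrawal and untreated rats both lists were lower after withdrawal, as Gcgr was. The alpha cell means did not overlap there. The beta cell group means were 11.2 and 11.5. After quantile normalization the beta cell means ran from 11.34 to 11.40 after withdrawal and from 11.55 to 11.64 in untreated rats. Lymphocyte marker means, from 7 of 8 listed genes, were lower on treated arrays, at 5.37 to 5.52, than on untreated, at 5.76 to 5.85, and withdrawal arrays, at 5.87 to 6.09. Macrophage marker means, from 9 of 9 genes, were 6.93 to 7.08 on withdrawal arrays and 6.30 to 6.47 on untreated arrays, with no overlap, and 7.38, 5.77 and 6.50 on the treated arrays. The first treated array also had the highest means of the duct list, at 9.41, and of the stellate cell and matrix list, at 10.5. The part of these cells in the Gcgr differences was not tested. The genes whose values over the 9 arrays were most like those of Gcgr after quantile normalization were Rgs16, Tgoln2 and Ccng1, with Pearson correlations of 0.98 each. In the deposited values they were Hbegf, Spetex2l2 and Matk, with 0.98, 0.98 and 0.97. The arrays share group and brightness, so these correlations describe the pattern only.

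Gipr, the receptor gene for glucose-dependent insulinotropic polypeptide, was highest under the drug. Its deposited values were 8.85, 9.20 and 9.26 on treated arrays, 8.10, 8.05 and 8.11 on withdrawal arrays and 8.01, 8.16 and 7.86 on untreated arrays. Treated values lay above all 6 others, and the withdrawal and untreated groups overlapped. Gipr rose by 1.09 ± 0.14 on treated against untreated arrays, a 2.13-fold difference (limma, adjusted p = 0.000954), and fell by 1.01 ± 0.14 on withdrawal against treated arrays (limma, adjusted p = 0.000795). The median of its brightness decile was 0.49 and −0.67 in these comparisons. After quantile normalization the difference between treated and untreated arrays was 0.67 ± 0.18 (limma, adjusted p = 0.0294), and the first treated array, at 8.33, then lay below the second untreated array, at 8.39. For withdrawal minus treated it was −0.49 ± 0.18 (limma, adjusted p = 0.0636) and was not called. Withdrawal and untreated arrays differed by 0.08, with a 95% interval of −0.22 to 0.38, and by 0.18, from −0.22 to 0.58, after quantile normalization. The list mean of delta and PP cell markers, all 4 of which had a probe set, moved in the same way. It ran from 10.9 to 11.3 on treated arrays, 9.86 to 10.1 on untreated and 9.66 to 10.1 on withdrawal arrays. After quantile normalization it was 10.66 to 10.72 on treated arrays and 9.99 to 10.17 on the other 6, again with no overlap. In the deposited values Sst, Ppy and Pyy were each higher on every treated array than on any other. Hhex was not: its treated arrays, at 7.18 to 8.20, spanned the other 6, which lay between 7.28 and 7.73. Alpha cell marker means, given above, were also highest on the treated arrays. Of that list Gcg, Irx1 and Pcsk2 had clearly their highest group mean there. Irx2 had a mean of 5.36 on treated and on untreated arrays. Ttr was lowest on treated arrays, at 8.26 against 8.33 on untreated and 8.37 on withdrawal arrays. The part of these cell types in the Gipr differences, and in those of Glp1r that follow, was not tested.

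Glp1r, the receptor gene for the incretin glucagon-like peptide 1 and the target of a class of diabetes drugs, followed the same order. Treated arrays stood at 8.05, 8.51 and 8.13, withdrawal arrays at 7.76, 7.53 and 7.46, and untreated arrays at 7.42, 7.32 and 7.58. The treated group did not overlap with either of the others, which overlapped with each other. Glp1r rose by 0.79 ± 0.15 on treated against untreated arrays, 1.73-fold (limma, adjusted p = 0.00484), and fell by 0.65 ± 0.15 on withdrawal against treated arrays (limma, adjusted p = 0.0057). After quantile normalization the differences were 0.49 ± 0.17 (limma, adjusted p = 0.0609) and −0.26 ± 0.17 (limma, adjusted p = 0.242), and neither was called, though treated and untreated values still did not overlap. Withdrawal and untreated arrays differed by 0.15, with a 95% interval of −0.18 to 0.47, and by 0.23, from −0.13 to 0.59, after quantile normalization. As for Gipr, the marker means of delta and PP cells, of alpha cells and of beta cells were higher on every treated array than on any other, on both scales.

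**Figure D2:**
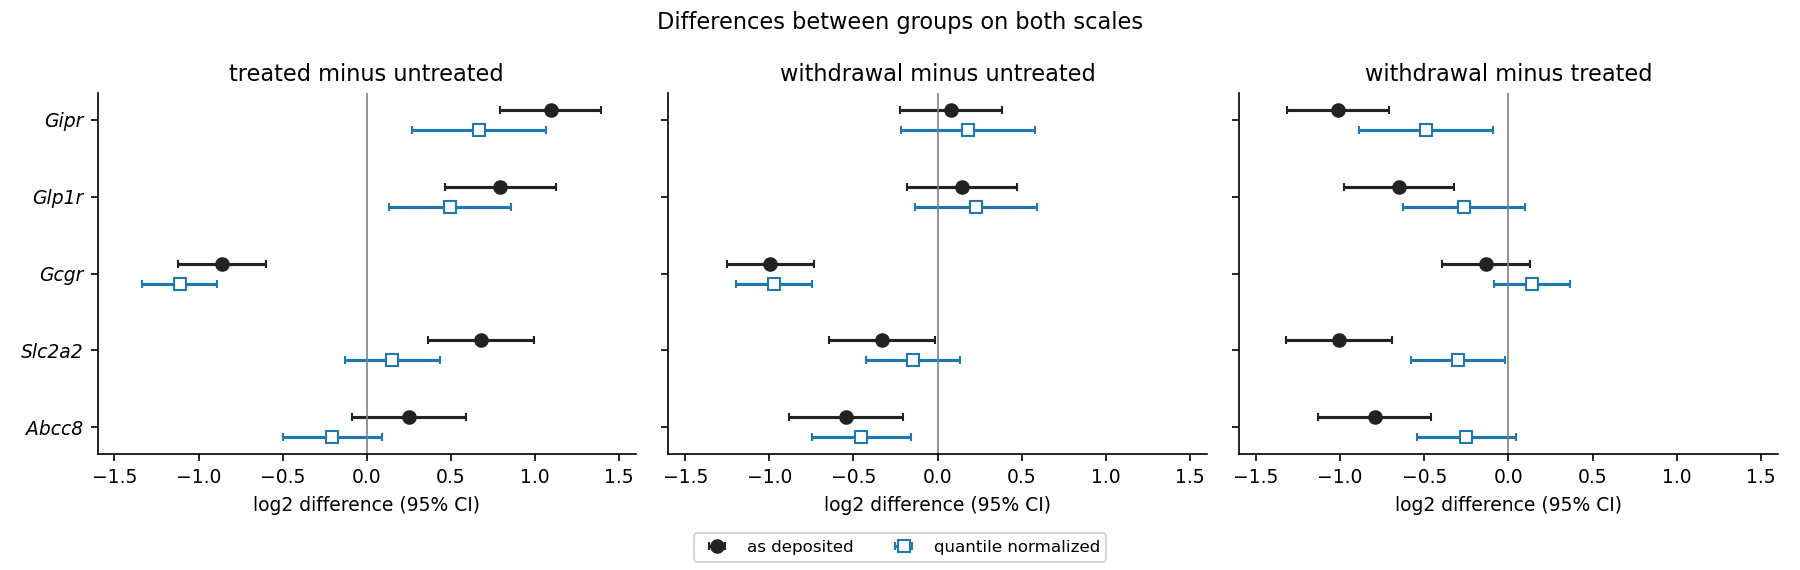
Log2 differences of the 5 genes in each comparison, with 95% intervals from limma, as deposited (filled circles) and after quantile normalization (open squares). Gcgr kept its place between −0.86 and −1.11 against untreated arrays on both scales, while the differences of Gipr, Glp1r and Slc2a2 between treated and untreated arrays shrank after quantile normalization, to 0.67, 0.49 and 0.15.

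Gipr and Glp1r moved alike across groups within the precision of 3 arrays each. The within-array log2 difference Gipr minus Glp1r averaged 0.87 ± 0.23 (SD, n = 3) in the treated group, 0.57 ± 0.28 in the untreated group and 0.50 ± 0.15 in the withdrawal group. An exact permutation test of the F statistic over all 1680 assignments of the arrays to the groups gave p = 0.225, also 0.225 adjusted over the 2 pairs tested, and the smallest p it could give was 0.00357. The groups overlapped, so unequal change of the incretin receptor genes was not detected, which does not show that they changed equally.

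By their means over the 9 arrays, Glp1r and Gcgr lay at the 85.2th and 84.7th percentile of all probe sets, and on untreated arrays at the 81.5th and 91.6th. The part of brightness in their difference was not tested. This pair was chosen after its values were seen and is given with no test. Glp1r minus Gcgr was 0.58, 1.08 and 0.61 on treated arrays, 0.43, 0.23 and 0.07 on withdrawal arrays and −1.05, −0.85 and −0.78 on untreated arrays. Group means were 0.76 for treated, 0.24 for withdrawal and −0.90 for untreated, and 0.67, 0.27 and −0.93 after quantile normalization. The 3 groups did not overlap in the deposited values. Only the change of such a difference between arrays can be read, since the brightness of 2 probe sets does not compare the amounts of 2 transcripts.

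**Figure D3:**
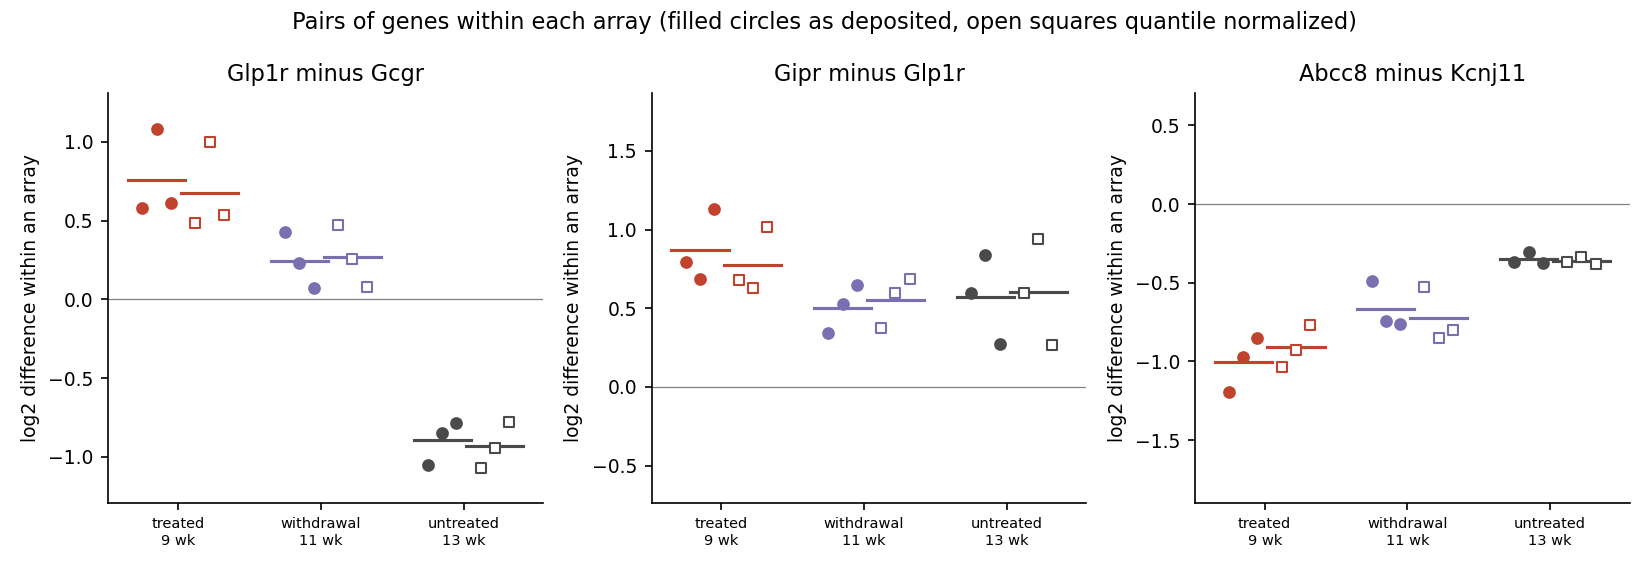
Within-array log2 differences for 3 pairs of genes on each array, as deposited (filled circles) and after quantile normalization (open squares), with bars for group means. Glp1r minus Gcgr ran from −1.05 to −0.78 on untreated and from 0.58 to 1.08 on treated arrays in the deposited values, Gipr minus Glp1r overlapped between groups, and Abcc8 minus Kcnj11 was highest on untreated arrays.

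Slc2a2 encodes the high-capacity glucose transporter of rodent beta cells, which is also found in liver, kidney and gut. Its values were 12.28, 12.15 and 12.37 on treated arrays, 11.25, 11.14 and 11.38 on withdrawal arrays and 11.61, 11.33 and 11.82 on untreated arrays. Treated values lay above all others, and the highest withdrawal array passed the lowest untreated array. Slc2a2 rose by 0.68 ± 0.14 on treated against untreated arrays (limma, adjusted p = 0.00772), and fell by 1.01 ± 0.14 on withdrawal against treated arrays, to a level 2.01-fold lower (limma, adjusted p = 0.000866). The median over the brightest 1% of probe sets, among which it lay, was 0.49 and −0.65 in these comparisons. After quantile normalization the differences were 0.15, with a 95% interval of −0.13 to 0.43, and −0.30, from −0.58 to −0.02, with limma's adjusted p = 0.426 and 0.0956. The deposited difference of −0.33 between withdrawal and untreated arrays did not pass (limma, adjusted p = 0.651), nor did the quantile-normalized difference of −0.15 (limma, adjusted p = 0.745). The Slc2a2 values thus moved with beta cell marker means and with array spread, and their part in the result was not tested.

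Abcc8 encodes the sulfonylurea receptor, the regulatory subunit of the ATP-sensitive potassium channel and the target of sulfonylurea drugs. It was lowest after withdrawal, at 8.41, 7.98 and 8.29, against 9.02, 8.56 and 8.74 on untreated and 9.14, 8.93 and 9.00 on treated arrays. Withdrawal values lay below all others, and treated and untreated values overlapped. Abcc8 fell by 0.80 ± 0.15 on withdrawal against treated arrays (limma, adjusted p = 0.00262), where the median of its brightness decile was −0.67. Its quantile-normalized difference, −0.25 ± 0.13, was not called (limma, adjusted p = 0.178). Withdrawal minus untreated was −0.55 ± 0.15 and did not pass (limma, adjusted p = 0.354), and it was −0.45 after quantile normalization, again without overlap. Treated minus untreated was 0.25 as deposited and −0.20 after quantile normalization, and neither passed. In the deposited values the group means of the beta cell markers ran in the same order as those of Abcc8. Their part in the Abcc8 differences was not tested.

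Kcnj11 encodes the pore-forming subunit of that channel and is the direct neighbour of Abcc8 on rat chromosome 1. Its deposited values were 10.3, 9.90 and 9.85 on treated arrays, 8.91, 8.72 and 9.06 on withdrawal arrays and 9.39, 8.87 and 9.11 on untreated arrays, so only the treated group stood apart. It rose by 0.90 ± 0.17 on treated against untreated arrays (limma, adjusted p = 0.00489). On the quantile-normalized scale it rose by 0.35 (limma, adjusted p = 0.0485). Its probe sets, 3 in number, gave 0.90, 1.01 and 1.04. The within-array difference Abcc8 minus Kcnj11 averaged −0.35 ± 0.04 (SD, n = 3) on untreated, −0.67 ± 0.15 on withdrawal and −1.01 ± 0.18 on treated arrays, with no overlap between the groups. An exact permutation test over the 3 groups gave p = 0.00357, the smallest it could give, and an adjusted p of 0.00714 over the 2 pairs tested. After quantile normalization the means were −0.36, −0.73 and −0.91, where the withdrawal and treated groups overlapped, and the exact permutation test gave an adjusted p of 0.0214. The values of the 2 subunit genes thus differed unequally between the groups on both scales. This pair was chosen with earlier results of these data known, and the share of all gene pairs with so small a p was not computed.

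Of the 5 members, 4 were called between treated and untreated arrays, 3 higher and 1 lower, where 28.1% of all probe sets were called, 20.9% higher and 7.24% lower. After quantile normalization 2 were called, Gipr higher and Gcgr lower, against 17.2% of all, 7.75% higher and 9.45% lower. In the deposited values the 4 members called on that scale did not overlap, against 42.9% of all probe sets, 31.2% higher and 11.7% lower. Gipr and Slc2a2 overlapped between these groups after quantile normalization, where the share over all probe sets was not computed. Between withdrawal and untreated arrays 1 was called, Gcgr, lower, against 0.159% of all probe sets as deposited, 0.00483% higher and 0.155% lower. The quantile-normalized share was 0.42%, 0.0338% higher and 0.387% lower, with Gcgr again the member called. Gcgr and Abcc8 did not overlap between these groups in the deposited values, both lower, against 18% of all, 7.65% higher and 10.3% lower. Between withdrawal and treated arrays 4 were called, each lower, against 43.8% called, 11.2% higher and 32.6% lower. After quantile normalization limma called 0 of the 5, against 29.1% of all probe sets called, 14.6% higher and 14.6% lower. The intervals of 2 members, Gipr and Slc2a2, left out 0, a looser mark than a call. By p they ranked 6795th and 8194th of 20694 probe sets, and the share of all intervals that left out 0 was not computed. All 5 members were lower on every withdrawal array than on any treated array in the deposited values, as were 39% of all probe sets, while 53.9% did not overlap in either direction and 14.9% were higher. The F test over the 3 groups called all 5 members, against 37% of all probe sets, and 2 after quantile normalization, Gipr and Gcgr, against 24.5%. These comparisons share arrays, so each is read by itself. By mean brightness the members lay from the 84.7th to the 99.6th percentile, and the shares over all probe sets were not matched for brightness.

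**Figure D4:**
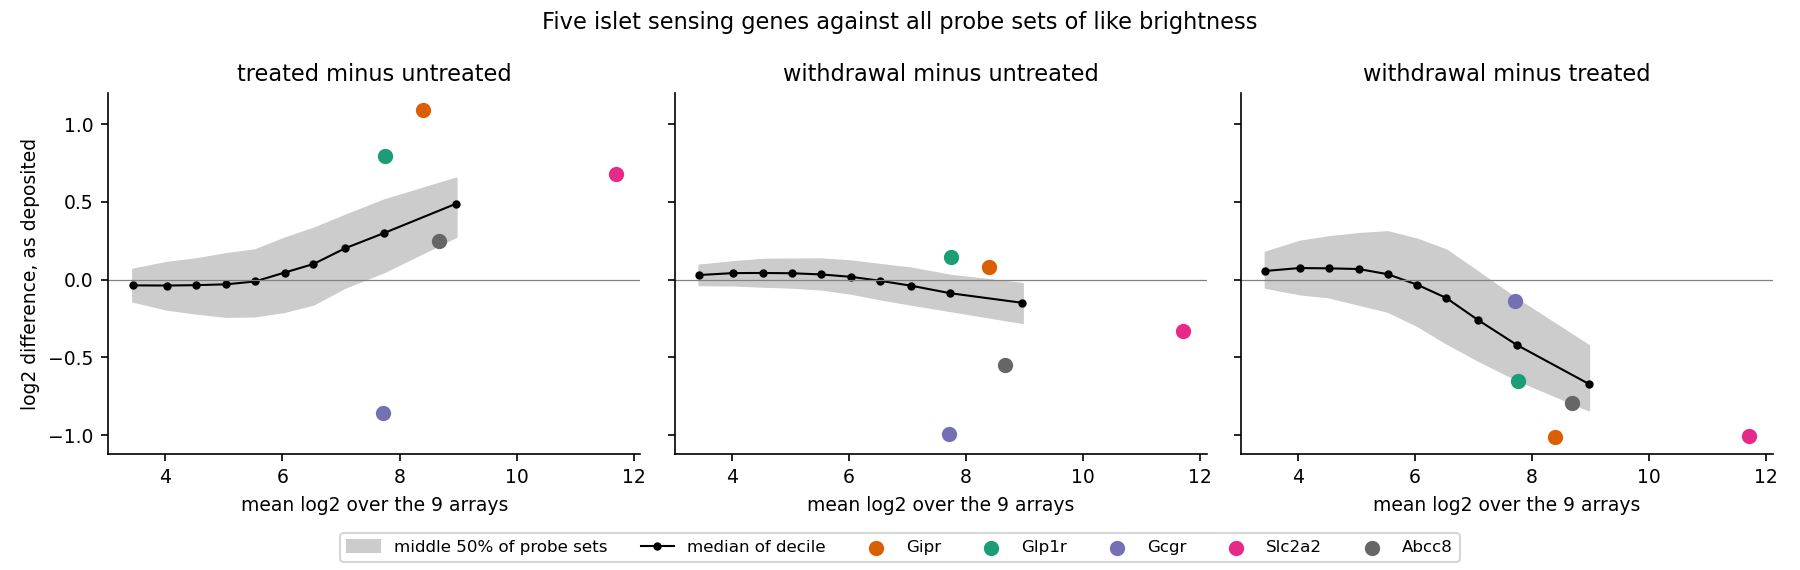
Deposited log2 difference of the 5 genes (coloured points) against their mean log2 over the 9 arrays, beside all probe sets in 10 classes of brightness, with the median as a line and the middle 50% as a band. Gcgr lay 1.16 below the median of its decile between treated and untreated arrays, and Gipr 0.60 above.

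Genes that act around the members were listed in 7 groups of 117 genes in all, of which 102 had a probe set and 95 were tested. Between treated and untreated arrays 29 of the 95 rose and 6 fell, and 60 did not pass, where 20.9% of all probe sets were called higher and 7.24% lower. Of these, 12 rose and 6 fell on both scales, against 7.48% and 6.42% of the 20687 probe sets tested on both. The median difference of the 95 was 0.22 as deposited, against 0.16 for all probe sets, and 0.01 after quantile normalization, against 0.02. Between withdrawal and untreated arrays none passed on either scale in limma, where 33 of 20694 probe sets passed as deposited. At an unadjusted limma p under 0.05 there were 14 list genes as deposited, against 1553 of the 20694 probe sets. Between withdrawal and treated arrays 6 rose and 44 fell, against 11.2% and 32.6% of all probe sets, and 5 and 22 did so on both scales, against 9.9% and 13.7%. These shares of all probe sets are the background of each list that follows, and nothing particular to a list is read from its counts.

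Among 7 tested class B receptors other than the members, 1 rose and 1 fell between treated and untreated arrays. Calcrl, a receptor component for calcitonin gene-related peptide and adrenomedullin that endothelial cells express, fell by 0.52 (limma, adjusted p = 0.0133), and by 0.59 after quantile normalization. It rose by 0.55 on withdrawal against treated arrays (limma, adjusted p = 0.00549), and by 0.64 after quantile normalization. Endothelial marker means ran from 7.84 to 8.70 on treated arrays, 7.62 to 7.91 on withdrawal arrays and 7.86 to 8.31 on untreated arrays, and overlapped between the treated group and each of the others. Their part in the Calcrl differences was not tested. Sctr, the secretin receptor gene, rose by 0.58 on treated against untreated arrays, and its difference after quantile normalization, 0.28, was not called.

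Among 21 tested genes of cyclic AMP signalling below the incretin receptors, 6 rose and 2 fell on treated against untreated arrays, and 1 rose and 10 fell on withdrawal against treated arrays. On both scales 2 rose and 2 fell in the first comparison and 0 and 2 in the second. The share of all probe sets called as deposited was 20.9% higher in the first and 32.6% lower in the second. Rapgef4, which encodes an exchange factor that cyclic AMP activates directly, stood at 6.90, 6.20 and 6.29 on treated arrays, 5.39, 5.32 and 5.07 on withdrawal arrays and 5.92, 5.32 and 5.37 on untreated arrays. It rose by 0.93 ± 0.21 against untreated arrays (limma, adjusted p = 0.00931) and fell by 1.20 after withdrawal against treated arrays (limma, adjusted p = 0.00162), with 0.87 and −1.18 after quantile normalization, both called. Pde3b, a phosphodiesterase gene whose product degrades cyclic AMP, rose by 0.74 and fell by 0.92 in the same comparisons, with 0.43 and −0.55 after quantile normalization. Pde10a, another phosphodiesterase gene, fell by 0.70 on treated against untreated arrays, and the quantile-normalized value was −1.04. The protein kinase A subunit genes Prkaca, Prkacb, Prkar1a and Prkar1b rose by 0.56 to 0.77 in the deposited values, but none of these passed after quantile normalization, where they lay between 0.02 and 0.20.

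Among 10 tested inhibitory receptors and Gi proteins, which oppose the incretins, 4 rose and 0 fell on treated against untreated arrays, and 2 did so on both scales. Gnai1, the gene for an inhibitory G protein subunit, stood at 6.85, 6.66 and 6.96 on treated arrays, 5.85, 5.96 and 6.02 on withdrawal arrays and 5.85, 5.84 and 5.82 on untreated arrays. It rose by 0.98 ± 0.12 (limma, adjusted p = 0.000776) and by 0.89 after quantile normalization, and fell by 0.88 and 0.81 after withdrawal against treated arrays. Sstr3, a somatostatin receptor gene, rose by 0.97 and by 0.56 after quantile normalization. Adra2a, the adrenergic receptor gene through which catecholamines restrain insulin release, rose by 0.59 in the deposited values, and its difference after quantile normalization, 0.15, was not called.

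Of 14 tested genes of glucose uptake, phosphorylation and glucose 6-phosphate hydrolysis, 8 rose on treated against untreated arrays and 9 fell on withdrawal against treated arrays, and 2 and 6 of these passed on both scales. Slc2a1, the gene of a glucose transporter found in most tissues, rose by 0.64 and by 0.54 after quantile normalization. Slc37a4, which carries glucose 6-phosphate into the endoplasmic reticulum, where the product of G6pc2 acts, rose by 0.90 and fell by 1.08 after withdrawal against treated arrays. After quantile normalization these were 0.33 (limma, adjusted p = 0.0699) and −0.35 (limma, adjusted p = 0.0461). The mitochondrial pyruvate carrier gene Mpc1 rose by 0.83 and by 0.32 after quantile normalization.

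Of 11 tested genes of the potassium channel and calcium entry, 5 rose and 1 fell on treated against untreated arrays, 3 and 1 on both scales. Kcnma1, a calcium-activated potassium channel gene, rose by 1.17 and by 0.67 after quantile normalization. After withdrawal against treated arrays 6 fell, 4 of them on both scales, among them Cacna1d, a calcium channel subunit gene, by 0.83 and Cacnb2, an auxiliary subunit gene, by 0.96. After quantile normalization these fell by 0.86 and 0.69. Among 12 tested genes of lipid receptors and Gq signalling, which stand here around the unmeasured Ffar1, 1 rose and 1 fell between treated and untreated arrays, both of them on both scales. Gna11, a Gq family gene, rose by 0.44 on both scales, and Dgkg, a diacylglycerol kinase gene, fell by 0.72, with −0.70 on the quantile-normalized scale.

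Of 20 tested zinc transporter and metallothionein genes, which stand here around the unmeasured Slc30a8, 4 rose and 1 fell on treated against untreated arrays, 2 and 1 on both scales. Mt1, a zinc-binding metallothionein gene, stood at 6.53, 7.40 and 6.56 on treated arrays, 5.75, 5.39 and 5.00 on withdrawal arrays and 5.21, 5.52 and 5.25 on untreated arrays. It was 2.83-fold higher on treated than on untreated arrays (limma, adjusted p = 0.00237), and after quantile normalization the log2 difference was 1.43 ± 0.23. Slc30a3, a zinc transporter gene of the same family as Slc30a8, fell by 0.58, with −0.80 on the quantile-normalized scale, and rose by 0.44 and 0.74 on withdrawal against treated arrays. Slc30a9 rose by 0.83 on treated against untreated arrays and fell by 1.21 on withdrawal against treated arrays, with 0.50 and −0.83 after quantile normalization, both called.

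**Figure D5:**
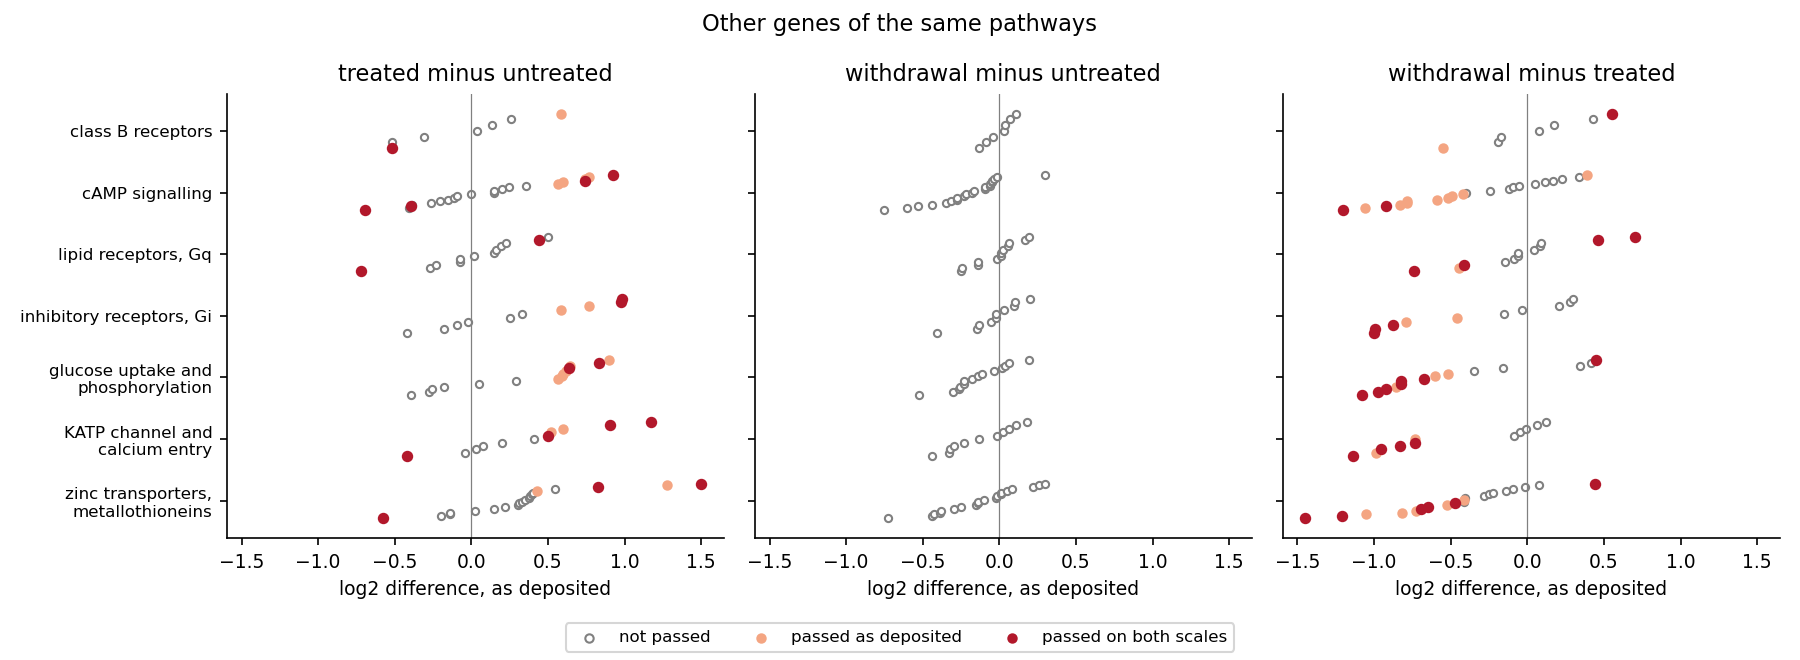
Deposited log2 differences of the 95 tested genes of the 7 lists in each comparison, with open points for genes that did not pass, pale points for genes called as deposited and dark points for genes called in the same direction on both scales. No gene of the lists passed between withdrawal and untreated arrays, and 22 fell on both scales between withdrawal and treated arrays.

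The order of the group means differed between members, which were measured at ages of 9, 11 and 13 weeks. Gipr and Glp1r were highest on treated arrays, with withdrawal and untreated means that did not differ beyond their spread. Gcgr was highest on untreated arrays, with treated and withdrawal means that were not called different. Slc2a2 and Abcc8 ran from treated through untreated to withdrawal in the deposited values, so the mean at 11 weeks lay below those at 9 and 13 weeks. Of the neighbours in that order, treated and untreated were called different for Slc2a2, and no pair of neighbours was for Abcc8. After quantile normalization the order of Abcc8 was untreated, treated, withdrawal, with no neighbouring pair called. Genes most like the members over the 9 arrays after quantile normalization were Oscp1, Arc and Vegfa for Gipr, at correlations of 0.95 to 0.96, and Pcca, Spout1 and Snx21 for Glp1r, at 0.95 each. They were Slc35b1, Doxl1 and Copg1 for Slc2a2, at 0.95 to 0.97, and Slc8a1, Strn4 and Atp5f1a for Abcc8, at 0.93 to 0.94. Over the 9 arrays Gipr correlated with Glp1r at 0.78 after quantile normalization, Glp1r with Gcgr at −0.61, and Gcgr with Abcc8 at 0.65.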

How the data were processed

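Per the labels, biotin-labelled RNA of isolated rat islets was hybridised to Affymetrix arrays. The deposited table held 31099 probe sets on 9 arrays, taken as log2 values because all lay between 2.58 and 14.4 with no zeros. RMA and MAS5 are named per the submitters' processing notes, and their roles and versions are not given in the sources used here. Depth does not apply, and the number of arrays limits precision. The 57 control probe sets and the lowest 33.3% by mean were left out, which left 20694. Symbols came from the platform annotation, updated through the GRCr8 gene table (20826 probe sets with 1 symbol, 436 with several, 9780 with none), and a gene was represented by its brightest probe set.

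Limma 3.58.1 in R 4.3.3 (lmFit, eBayes) fitted a term per group, adjusted by Benjamini-Hochberg. It was tested on simulated data. Exact permutation tests compared pairs of genes within arrays, and 2 of the 4 planned pairs, which held G6pc2 or Slc30a8, were not analysed here. The members, lists and pairs were chosen with earlier results of these data known. Named were all members and, of each list, up to 4 genes per comparison with the smallest adjusted p among those called. Not all were printed, and Prkar1a, outside that rule, was named after its values were seen. The alternatives were quantile and cyclic loess normalization, median centring, other filters, trend and robust settings, array weights, the 6 arrays compared, the replicate block, each array left out, a size floor and the mean over probe sets. Quantile normalization without the first treated array was added after the data were seen. Same-numbered arrays of different groups correlated in their deviations from −0.28 to 0.50, with 5 of 9 pairs over 0.1. Differently numbered arrays did so from −0.48 to 0.41. Nothing in the labels says that a number marks a shared litter, day or batch, so the numbers were not taken to pair arrays. Python 3.11.15 with matplotlib 3.10.9 drew the figures.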

Additional observations from a re-analysis of the deposited data

How the results depend on the processing

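Apart from the size floor, which is given as counts below, Gipr and Gcgr kept their direction and their call between treated and untreated arrays under 20 alternatives, from 0.67 to 1.26 and from −1.17 to −0.79. Gcgr was lower on withdrawal than on untreated arrays under these 20, from −1.08 to −0.90, and was called under 16. With a size floor of 1, Gcgr was called in neither comparison, since its differences of −0.86 and −0.99 were smaller than 1. The calls of Glp1r and Slc2a2 between treated and untreated arrays were lost after quantile and cyclic loess normalization, and that of Slc2a2 also after quantile normalization without the first treated array, and the cause was not tested. Treated minus untreated of Abcc8 reversed to −0.20 after quantile and −0.20 after cyclic loess normalization and to −0.15 after quantile normalization without the first treated array. Withdrawal minus treated of Gcgr reversed there to 0.14, 0.26 and 0.067. None of the 6 values had passed.

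Members called between treated and untreated, withdrawal and untreated, and withdrawal and treated arrays, 4, 1 and 4 in the report, were 2, 1 and 0 after quantile or cyclic loess normalization, 1, 0 and 2 with a size floor of 1, and 3 in the second comparison with array weights. Each array left out in turn gave 4 throughout, 0 to 1, and 4. The F test over the groups called 5 members, 2 after quantile and 1 after cyclic loess normalization, and 5 with each array left out.

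All probe sets called were 5817, 33 and 9057. They were 3559, 87 and 6032 after quantile normalization, with 45.1% higher between treated and untreated arrays against 74.2% as deposited, and 3821, 56 and 5900 after cyclic loess normalization. The size floor left 364 in the first and 688 in the third. The second came to 3275 with array weights, 50 with the replicate block and 494 with only the 6 arrays compared, a fit that gave 3209 in the first. It was 409 after quantile normalization without the first treated array. Leaving out arrays gave 2029 to 6340, 7 to 399 and 5570 to 9545. The lowest counts came without the second untreated array in the first and without the second withdrawal array in the third. In the second, 399 came without the first treated array, and 7 without withdrawal array 1 or 2 or untreated array 1 or 3. The F test called 7656, 5076 after quantile and 4840 after cyclic loess normalization, and 4767 to 8629 with an array left out.

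List genes called were 35, 0 and 50. The third was 32 after quantile, 32 after cyclic loess normalization and 30 after quantile normalization without the first treated array, and the size floor left 3 in the first and 7 in the third. In the second, median centring gave 1, array weights 29, the 6 arrays compared 4, and quantile normalization without the first treated array 4. Leaving out arrays gave 14 to 40, 0 to 4 and 33 to 50. Abcc8 minus Kcnj11 between treated and untreated arrays stayed from −0.73 to −0.56 with each array left out, and Gipr minus Glp1r from 0.15 to 0.43. For Abcc8 minus Kcnj11 the exact permutation test over all 3 groups then gave an adjusted p from 0.00714 to 0.0286. Treated and untreated arrays alone were not tested for these pairs. The replicate block changed no call of a member.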
